A study of Arabidopsis thaliana with 9 samples.

Results

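The genes described are 7 repressors of the anthocyanin pathway of Arabidopsis thaliana, taken by gene identifier from the 33602 genes in each expression file: MYBL2, CPC, LBD37, LBD38, LBD39, SPL9 and MYB4. All 7 were found, and all 7 passed the filter of at least 1 FPKM in at least 3 libraries. FPKM is a fragment count scaled for gene length and library size, so levels may be compared between genes. The libraries came from seedlings 9 days old, grown on 1/2 MS medium with 2% sucrose. There were 3 groups of 3 libraries: OE1 and OE2, both labelled as overexpressing CsGSTF1, and tt19-8, labelled as a knock-out of tt19. CsGSTF1 is a glutathione S-transferase gene of tea, and TT19 encodes the Arabidopsis member of this enzyme family without which little anthocyanin reaches the vacuole. The series title presents CsGSTF1 as a rescue of the pigment loss of tt19-8. The genetic background of OE1 and OE2, the promoter of the transgene and the origin of libraries of 1 group (separate plants or 1 harvest) are not given in the sources used here, so p-values measure only the spread between these libraries.

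Anthocyanin synthesis is switched on by complexes of a MYB factor (PAP1, PAP2), a bHLH factor (TT8, GL3, EGL3) and the WD40 protein TTG1, which act on late pathway genes such as DFR and LDOX. Repressors act on this complex in several ways. The small R3 MYB proteins CPC and MYBL2 occupy the bHLH partner, and MYBL2 also carries a repression motif. SPL9, a target of the microRNA miR156, binds PAP1 and disturbs the complex. LBD37, LBD38 and LBD39 are nitrate-induced LOB-domain factors that lower PAP1 and PAP2 transcripts. MYB4 is an R2R3 MYB repressor with an EAR motif that acts upstream, on the phenylpropanoid gene C4H.

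TT19 (AT5G17220), the targeted gene, measured 0, 0.0769 and 0.0712 FPKM in OE1 replicates 1, 2 and 3 and 0.864, 0.674 and 0.876 in OE2, against 0.113, 0.0399 and 0 FPKM in tt19-8. It stayed below 1 FPKM in all 9 libraries, was highest in the OE2 libraries, and was not tested. CsGSTF1 is no Arabidopsis gene, and its level was not analysed here. The OE2 libraries are tied to the OE1 libraries of the same number. Over the 17157 to 17495 genes above 1 FPKM in the OE1 library, the lowest ratio of OE2 to same-numbered OE1 was 0.601 to 0.605, and no gene was below 0.6. Between libraries of unlike number 8.21% to 15.5% of genes were below 0.6. The origin of the link was not tested, and p-values that involve OE2 treat linked libraries as separate. A like change in OE1 and OE2 is thus not evidence from separate lines. The fit of all 9 libraries also counts them as separate in its estimate of the spread. That estimate enters the p-values of OE1 against tt19-8 too. Replicate 3 of tt19-8 differed from the other tt19-8 libraries in several of the 7 genes, and calls of the genes named here that change without it are given beside them. This library was singled out by its values in these data, and leaving it out keeps 2 tt19-8 libraries. In LBD39, NIA2 and GL2 it was the tt19-8 library nearest the lines, so leaving it out widens those differences. The calls over all genes in OE1 went from 3 to 3128. Calls made without it are not separate evidence. The tissue markers of both organs were present: RBCS1A, of green tissue, measured 9907 to 20050 FPKM over the 9 libraries, and none of the 7 root epidermis and root hair markers was at 0 throughout a group. The low values of OE1 and tt19-8 lay on whole-fragment steps, which gave totals of 48.2 to 54.4 M fragments in OE1 and 48.5 to 57.2 M in tt19-8. In OE2 no steps were found, and its depth is unknown. At the stepped depths 3 fragments corresponded to at most 0.0816 FPKM for the shortest gene, CPC, and the lowest value of any of the 7 genes was 0.5995 FPKM.

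The upstream sequences of the LBD trio and of CPC are shown because LBD39 and CPC were the genes that passed the test in OE2, and because LBD37 and LBD38 are the closest relatives of LBD39 here. Each is the 250 bases before the annotated gene start, 5′ to 3′ on the gene's strand, from the TAIR10.1 genome of RefSeq; the submitters' processing notes name TAIR10. Capitals mark matches to any of 4 motifs searched on either strand. These were the G-box, spelled CACGTG, and the LOB-domain motif, spelled GCGGCG. The other two were a W-box form that ends in CC, spelled TTGACC, and a form that ends in CT, spelled TTGACT. None of the 4 overlaps another in these windows.
LBD39 (chr4:17640926-17641175, reverse strand): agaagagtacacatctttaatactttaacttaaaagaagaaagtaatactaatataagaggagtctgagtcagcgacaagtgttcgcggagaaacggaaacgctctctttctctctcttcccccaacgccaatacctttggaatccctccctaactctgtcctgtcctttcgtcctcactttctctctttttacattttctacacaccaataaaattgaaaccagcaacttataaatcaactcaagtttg
LBD37 (chr5:26906525-26906774, reverse strand): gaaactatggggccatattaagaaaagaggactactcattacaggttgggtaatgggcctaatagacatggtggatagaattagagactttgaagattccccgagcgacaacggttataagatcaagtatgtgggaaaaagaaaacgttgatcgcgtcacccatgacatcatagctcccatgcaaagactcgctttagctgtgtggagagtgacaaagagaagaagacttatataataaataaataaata
LBD38 (chr3:18514016-18514265, forward strand): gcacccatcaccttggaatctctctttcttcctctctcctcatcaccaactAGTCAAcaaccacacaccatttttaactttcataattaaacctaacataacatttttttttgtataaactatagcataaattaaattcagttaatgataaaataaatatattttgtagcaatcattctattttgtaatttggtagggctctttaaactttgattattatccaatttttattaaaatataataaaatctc
CPC (chr2:19050370-19050619, reverse strand): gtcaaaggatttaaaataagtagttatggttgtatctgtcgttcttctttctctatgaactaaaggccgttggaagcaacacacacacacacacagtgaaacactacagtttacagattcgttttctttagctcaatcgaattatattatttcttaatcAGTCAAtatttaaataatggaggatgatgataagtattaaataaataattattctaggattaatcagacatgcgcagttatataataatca
LBD38 held 1 match to TTGACT, on the opposite strand, beginning 199 bases before the gene start, and CPC held 1, beginning 91 bases before it. No match to the 4 motifs was found in the windows of LBD39 and LBD37. Over all 7 genes, 4 windows held TTGACT, against 19.1% of 27443 windows of the same length before protein-coding genes. None of the 7 held the G-box, the W-box form in CC or the LOB-domain motif, which occurred in 6.49%, 12.2% and 1.56% of all windows.

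The SPL9 transcript is a target of miR156, so the mature miRNA and its site are shown beside the sites of related genes. The miRNA is printed from the MIR156A locus with its seed (bases 2 to 8) in capitals, in DNA letters, and each site has the 7 bases opposite the seed in capitals.
miR156a-5p (chr2:10676534-10676553, reverse strand): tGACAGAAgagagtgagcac
SPL9 site (chr2:17589066-17589085, forward strand): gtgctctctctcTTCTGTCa
SPL3 site (chr2:14305878-14305897, forward strand): ttgcttactctcTTCTGTCa
SPL4 site (chr1:19807090-19807109, forward strand): ctgctctctctcTTCTGTCa
SPL5 site (chr3:5140598-5140617, reverse strand): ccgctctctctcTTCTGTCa
The SPL9 site lies in a coding exon and pairs at 19 of 20 bases. The same 20 bases occur in 8 genes: SPL9, SPL2, SPL6, SPL10, SPL11, SPL13A, SPL13B and SPL15. The sites of SPL3, SPL4 and SPL5 lie in exons outside the coding sequence and pair at 18, 18 and 17 bases. The bases opposite the seed were identical in all 11 genes.

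The 7 repressors spanned a wide range of levels. Averaged over the 9 libraries, LBD37 stood at 70.5 FPKM, LBD38 at 37.7, LBD39 at 27.1, MYB4 at 13.7, MYBL2 at 3.36, SPL9 at 3.08 and CPC at 1.39 FPKM. These means placed LBD37 at the 87.3 percentile of the 18232 tested genes and CPC at the 7.575 percentile. LBD37 was above LBD38 in 9 of 9 libraries, LBD39 above MYB4 in 9, MYB4 above MYBL2 in 9 and SPL9 above CPC in 9. LBD38 was above LBD39 in 7 libraries, among them all those of OE1 and OE2, and below it in tt19-8 replicates 1 and 2. MYBL2 was above SPL9 in 6 libraries, and these neighbours do not differ beyond their spread over libraries. The 3 LBD genes together held 121 to 138 FPKM in OE1 and 102 to 114 in OE2, against 137 to 208 FPKM in tt19-8. These sums are unscaled, and the FPKM of all genes also summed to less in OE2. It came to 867529 to 912535 there, 1032370 to 1079860 in OE1 and 1056690 to 1096080 in tt19-8.

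**Figure D1:**
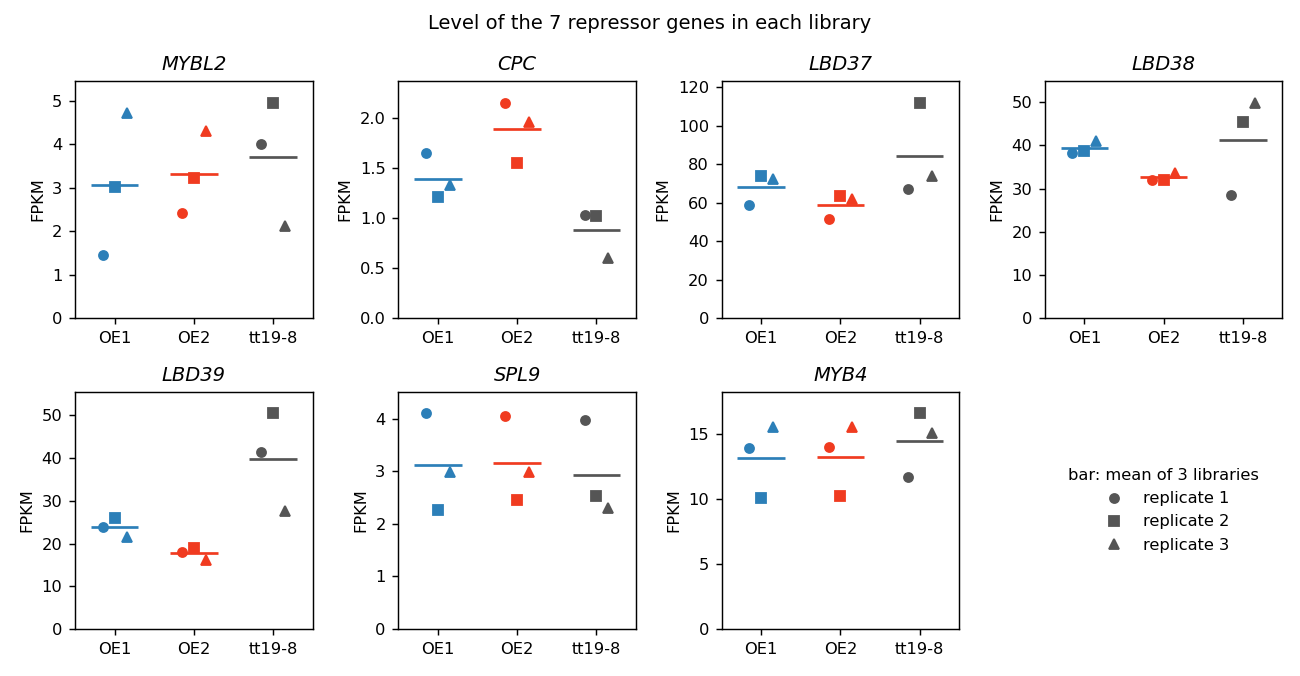
Level of each repressor gene in FPKM (linear axis from 0) in the 3 libraries of OE1, OE2 and tt19-8; symbols give the replicate number and the bar the group mean. LBD39 is highest in tt19-8 replicates 1 and 2 (41.4 and 50.5 FPKM) and CPC is highest in OE2 (1.55 to 2.16 FPKM).

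Against tt19-8, OE1 had no repressor past the threshold and OE2 had LBD39 lower and CPC higher. The test was limma on log2(FPKM + 1) over all 18232 tested genes, with Benjamini-Hochberg adjusted p under 0.05. In OE1 it called 0 of the 7 genes, of which 1 had an unadjusted p under 0.05, and 0.0165% of all genes (0.00548% higher and 0.011% lower). In OE2 it called 2 of the 7 genes, 1 in each direction, and 19% of all genes (4.5% higher and 14.5% lower). An unadjusted p under 0.05 was reached by 3458 of all 18232 genes in OE1 and by 6446 in OE2. Groups did not overlap in 2 of the 7 genes in OE1 and in 3 in OE2, against 17.5% and 37.1% of all genes. The median log2 change of the 7 genes was -0.13 in OE1 and -0.12 in OE2, beside -0.11 and -0.18 for all tested genes. Both comparisons use the same tt19-8 libraries. After median-ratio scaling of the libraries the medians of all genes were -0.0049 in OE1 and -0.017 in OE2. The scaled values called 0 of the 7 genes in OE1 and 0.011% of all genes, and in OE2 LBD39 and CPC again and 12.7% of all genes. Over all genes in OE2, 821 were called higher and 2646 lower, and 1240 higher and 1081 lower after scaling.

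**Figure D2:**
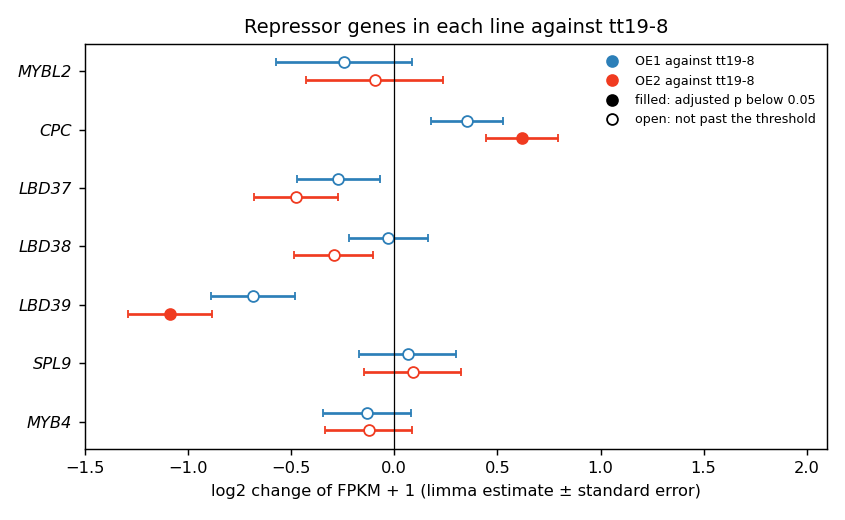
Log2 change of FPKM + 1 (limma estimate with standard error) of each repressor gene in OE1 and in OE2 against tt19-8; filled points passed an adjusted p of 0.05 over all genes. Only LBD39 (-1.09) and CPC (0.62) in OE2 are filled, and SPL9, MYB4 and MYBL2 lie between -0.24 and 0.09 in both lines.

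LBD39 (AT4G37540, chromosome 4, 17639393 to 17640925, reverse strand) lay below tt19-8 in both lines and passed the test in OE2. It measured 23.9, 26.1 and 21.5 FPKM in OE1 replicates 1, 2 and 3 and 17.9, 19.0 and 16.3 in OE2, against 41.4, 50.5 and 27.7 FPKM in tt19-8. Every library of both lines was below every tt19-8 library, and replicate 3 of tt19-8 was the nearest to them. The OE1 and OE2 libraries are linked, so the lines do not count as separate evidence here. Groups that do not overlap downward made up 13.3% of tested genes in OE1 and 27.7% in OE2. LBD39 fell in OE2, to 17.7 ± 1.36 FPKM, and the tt19-8 mean was 39.9 ± 11.5 FPKM (SD, n = 3 each), with a log2 change of -1.09 ± 0.20 (limma adjusted p = 0.00978). In OE1 it averaged 23.8 ± 2.31 FPKM, with a log2 change of -0.68 ± 0.20 that did not pass (limma adjusted p = 0.178). Without tt19-8 replicate 3 the change in OE1 was -0.92 and passed (limma adjusted p = 0.00821), as did 17.3% of all genes. The call in OE2 held in all 17 alternatives, with log2 changes of -1.32 to -0.90 and adjusted p of 0.00103 to 0.0477. Without tt19-8 replicate 3 the test called 32.9% of all genes in OE2. After median-ratio scaling LBD39 changed by -0.90 in OE2 (adjusted p = 0.0181) and by -0.56 in OE1 (adjusted p = 0.203).

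LBD37 and LBD38, which share the nitrate response with LBD39, did not pass in either line. LBD37 (AT5G67420, chromosome 5, 26903866 to 26906524, reverse strand) measured 58.8, 73.6 and 72.2 FPKM in OE1 and 51.5, 63.3 and 62.1 in OE2, against 66.9, 112 and 73.7 FPKM in tt19-8. All OE2 libraries lay below the lowest tt19-8 library, and the OE1 range overlapped tt19-8. Its log2 changes were -0.27 ± 0.20 in OE1 and -0.48 ± 0.20 in OE2 (limma adjusted p = 0.463 and 0.12). LBD38 (AT3G49940, chromosome 3, 18514266 to 18516131, forward strand) measured 38.2, 38.7 and 41.1 FPKM in OE1 and 32.1, 32.0 and 33.6 in OE2, against 28.5, 45.4 and 49.9 FPKM in tt19-8. The tt19-8 libraries enclosed all others. Its log2 changes were -0.03 ± 0.19 and -0.29 ± 0.19 (limma adjusted p = 0.944 and 0.297), and the sign in OE1 turned positive after median-ratio scaling (0.09).

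Within a library, the ratio of 2 genes does not move with the scaling of that library. The LBD39 to LBD38 ratio was 0.624, 0.673 and 0.522 in OE1, 0.558, 0.592 and 0.484 in OE2, and 1.455, 1.11 and 0.554 in tt19-8. Replicates 1 and 2 of tt19-8 stood apart from the lines and replicate 3 lay among them. LBD39 made up 15.9% to 19.7% of the summed FPKM of the 3 LBD genes in OE1, 14.5% to 17.6% in OE2, and 18.3% to 30.3% in tt19-8. These ratios were chosen after the values were seen and were not tested.

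Several genes that respond to nitrate, like LBD39, fell in OE2. Of 13 listed genes 12 were tested, and in OE2 against tt19-8 limma called 0 higher and 5 lower, where 14.5% of all genes were lower. All 12 log2 changes were below 0, as were 12010 of all 18232 genes, with a median of -0.49 against -0.18 for all genes. In OE1 all 12 were also below 0 (median -0.38 against -0.11), as were 11410 of all genes. There 0 of the 12 were called and 4 had an unadjusted p under 0.05, beside 3458 of all 18232 genes. Without tt19-8 replicate 3 limma called 5 of the 12 lower in OE1, where 11 were then below 0, and 6 in OE2. In the same fits 2346 of all 18128 genes tested were lower in OE1 and 4548 in OE2. After median-ratio scaling the 12 stayed below 0 in both lines, beside 9209 of all 18229 genes in OE1 and 9421 in OE2. With scaling 2 of the 12 were called in OE2, where 1081 of all genes were called lower.

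NIR1, nitrite reductase, fell to 178 ± 19.1 FPKM in OE2 (tt19-8 334 ± 64.0), a log2 change of -0.89 ± 0.18 (limma adjusted p = 0.0134). In OE1 NIR1 stood at 195 ± 25.2 FPKM (-0.76 ± 0.18, adjusted p = 0.175). G6PD3, a plastid glucose-6-phosphate dehydrogenase, fell by 0.69 in OE2 and the transcription factor gene TGA1 fell by 0.70 (limma adjusted p = 0.0204 and 0.0366). BT2, a BTB and TAZ domain protein gene, fell by 0.94 and NIA2, the main nitrate reductase gene, fell by 0.80 (limma adjusted p = 0.0437 and 0.0469). The calls of TGA1, BT2 and NIA2 ended after median-ratio scaling, that of BT2 also without tt19-8 replicate 3 (adjusted p = 0.0705) and that of NIA2 in a fit of OE2 and tt19-8 alone (adjusted p = 0.0635). NIR1, NIA2 and G6PD3 passed in OE1 as well once tt19-8 replicate 3 was left out, with log2 changes of -0.93, -1.045 and -0.57 (limma adjusted p = 0.0104, 0.00588 and 0.0261). In that fit 17.3% of all genes passed in OE1. NIA2 measured 184, 178 and 164 FPKM in OE1 and 167, 163 and 164 in OE2, against 371, 354 and 179 FPKM in tt19-8, so that replicate 3 of tt19-8 stood near the lines. Of 3 further class II LBD genes LBD41 alone was tested, with log2 changes of -0.46 ± 0.31 in OE1 and -0.75 ± 0.31 in OE2 (limma adjusted p = 0.425 and 0.114). LBD41 passed in OE2 without tt19-8 replicate 3, at -1.13 (adjusted p = 0.0101), and in OE1 it was at -0.83 (adjusted p = 0.0504). LBD40 and LBD42 stayed below the filter.

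**Figure D3:**
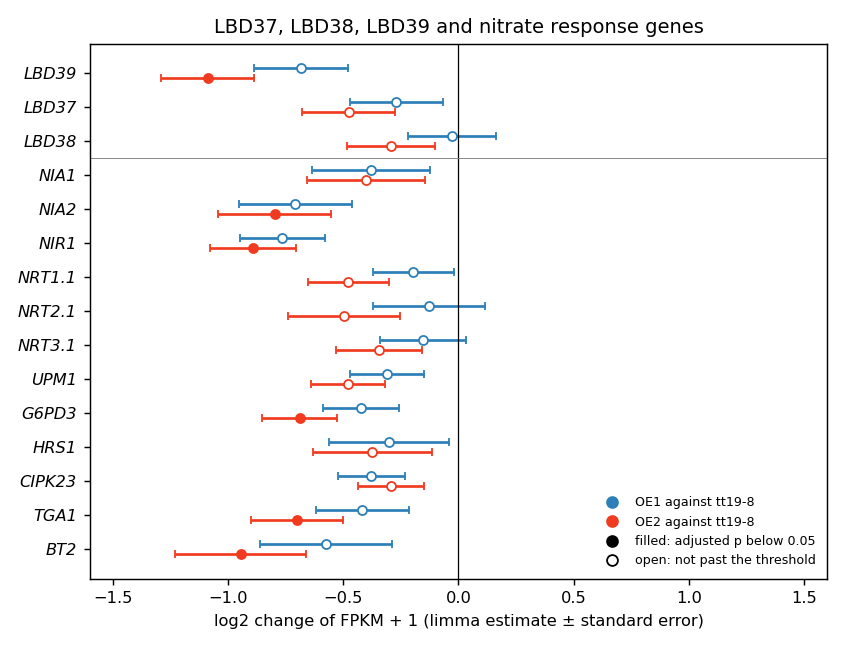
Log2 change of FPKM + 1 (limma estimate with standard error) of the 3 LBD genes, above the line, and of the 12 tested nitrate response genes in OE1 and OE2 against tt19-8; filled points passed an adjusted p of 0.05. All 12 nitrate genes lie below 0 in both lines, as do 11410 of all 18232 genes in OE1 and 12010 in OE2. LBD39, NIA2, NIR1, G6PD3, TGA1 and BT2 are filled in OE2.

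CPC (AT2G46410, chromosome 2, 19049021 to 19050369, reverse strand) stood above tt19-8 in both lines at a low level and passed the test in OE2. It measured 1.66, 1.21 and 1.33 FPKM in OE1 and 2.16, 1.55 and 1.96 in OE2, against 1.03, 1.02 and 0.5995 FPKM in tt19-8. Every library of OE1 and OE2 was above every tt19-8 library, which held for 4.14% of tested genes in OE1 and 9.35% in OE2. With the libraries of the lines linked, this is not separate evidence from each line. CPC rose in OE2, to 1.89 ± 0.311 FPKM against 0.884 ± 0.247 FPKM in tt19-8, a log2 change of 0.62 ± 0.17 (limma adjusted p = 0.0345). In OE1, at 1.40 ± 0.232 FPKM, the log2 change was 0.35 ± 0.17 (limma adjusted p = 0.293). The pseudocount of 1 FPKM is of the size of the values themselves: with 0.1 FPKM the change in OE2 was 1.04, and with 5 FPKM it was 0.23. The call ended without any of the OE2 libraries, without tt19-8 replicate 1 or 2, and in a fit of OE2 and tt19-8 alone, where the adjusted p was 0.0591 to 0.137.

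CPC moves between cells of the root epidermis, where it lets hairs form, and GL2, which holds hair formation back, is lowered by it. GL2 measured 30.5, 34.9 and 38.5 FPKM in OE1 and 21.5, 24.5 and 27.0 in OE2, against 59.2, 51.7 and 30.9 FPKM in tt19-8. It fell in OE2 by 0.88 (limma adjusted p = 0.0249), a call that median-ratio scaling ended. With tt19-8 replicate 3 left out GL2 passed in OE1 too, at -0.67 (limma adjusted p = 0.0221). The CPC to GL2 ratio was 0.0345 to 0.0542 in OE1, 0.0632 to 0.1002 in OE2, and 0.0175 to 0.0197 in tt19-8, with no overlap between any 2 groups. This ratio was picked after the values were seen. The 7 root epidermis and root hair markers, GL2 among them, summed to 54.5 to 67.4 FPKM in OE1 and 43.6 to 52.6 in OE2. In tt19-8 they summed to 64.9 to 93.6 FPKM, and GL2 was the largest part of each sum. Of the 6 tested, 4 fell in OE2 (EXPA7, COBL9, RSL4 and GL2), where 14.5% of all genes were lower. WER, the marker below the filter, went the other way in OE2. It measured 0.486, 0.294 and 0.791 FPKM there, against 0.0356, 0.189 and 0.257 FPKM in tt19-8, and its OE1 range overlapped tt19-8. After median-ratio scaling EXPA7 alone was called, with 1081 of 18229 genes lower. Leaving out tt19-8 replicate 3, the test called 3 of the 6 lower in OE1 (EXPA7, RSL4 and GL2) and 4 in OE2, beside 2346 and 4548 of all 18128 genes. In whole seedlings fewer cells of a type and less RNA per cell cannot be told apart, and the part of root tissue in the CPC values was not tested.

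The other R3 MYB repressors, which act like CPC on hairs and trichomes, were measured at low levels. TRY and CPL3 alone of 5 were tested, and neither passed with all 9 libraries in the fit. TRY measured 1.22, 1.00 and 0.773 FPKM in OE1 and 1.22, 1.01 and 0.787 in OE2, against 2.78, 2.66 and 0.393 FPKM in tt19-8. Its log2 changes were -0.43 ± 0.33 in OE1 and -0.42 ± 0.33 in OE2 (limma adjusted p = 0.484 and 0.389). TRY was called lower in both lines without tt19-8 replicate 3, with -0.90 in each (limma adjusted p = 0.0134 in OE1 and 0.00608 in OE2). Replicate 3 of tt19-8 was the lowest of the 9 libraries and the other tt19-8 libraries were the highest. CPL3 had log2 changes of -0.42 ± 0.64 in both lines, with 7.65, 0.754 and 4.99 FPKM in OE1 and 7.60, 0.774 and 4.97 in OE2, against 6.11, 3.36 and 5.98 FPKM in tt19-8.

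MYBL2 (AT1G71030, chromosome 1, 26795052 to 26796532, reverse strand) varied more within groups than between them. It measured 1.45, 3.01 and 4.72 FPKM in OE1 and 2.42, 3.24 and 4.30 in OE2, against 4.02, 4.96 and 2.12 FPKM in tt19-8. The groups overlapped throughout. Its log2 changes were -0.24 ± 0.33 in OE1 and -0.09 ± 0.33 in OE2 (limma adjusted p = 0.701 and 0.864), and the sign in OE2 turned after median-ratio scaling (0.06). The changes of MYBL2 without tt19-8 replicate 3 were -0.51 in OE1 and -0.36 in OE2, and neither passed (limma adjusted p = 0.323 and 0.444).

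Set against the MYB activators in the same library, MYBL2 was lowest in OE2. The ratio of MYBL2 to PAP1 plus PAP2 was 0.269, 0.674 and 0.359 in OE1, 0.131, 0.187 and 0.174 in OE2, and 0.977, 1.21 and 0.511 in tt19-8. All OE2 libraries lay below all others, and the OE1 range overlapped tt19-8. PAP1 measured 6.20 ± 4.04 FPKM in OE1 and 13.1 ± 3.86 in OE2, against 3.09 ± 0.656 FPKM in tt19-8. PAP2 (MYB90 in the annotation) measured 1.47 ± 0.851 FPKM in OE1 and 7.04 ± 0.497 in OE2, against 1.03 ± 0.636 FPKM in tt19-8. These 2 genes passed upward in OE2 among 6 tested activators (limma adjusted p = 0.0111 and 0.00395), where 4.5% of all genes were called higher. None of the 6 passed in OE1, where 0 had an unadjusted p under 0.05, beside 3458 of all 18232 genes. The third activator by adjusted p, TTG1, changed by 0.31 ± 0.14 in OE1 and 0.25 ± 0.14 in OE2 (limma adjusted p = 0.268 and 0.245). TTG1 passed in both lines without tt19-8 replicate 3, at 0.44 in OE1 and 0.37 in OE2 (limma adjusted p = 0.0261 and 0.0269). That fit called 1 of the 6 activators higher in OE1 and 3 in OE2, beside 782 and 1419 of all 18128 genes. Taken over the summed FPKM of all 8 listed activators, of which TTG1 holds most, the MYBL2 ratio was 0.0132 to 0.0389 in OE1, 0.0202 to 0.0334 in OE2 and 0.0214 to 0.0581 in tt19-8, and the groups overlapped. Of 8 tested late anthocyanin genes, the targets of the complex, 3 rose in OE2, where 4.5% of all genes were called higher. They were LDOX, UGT75C1 and DFR, by 1.14, 0.66 and 0.63 on the log2 scale (limma adjusted p = 0.00719, 0.0314 and 0.0319). In OE1 0 of the 8 passed and 4 had an unadjusted p under 0.05, beside 3458 of all 18232 genes. Without tt19-8 replicate 3 DFR passed upward in OE1 (0.66, limma adjusted p = 0.0345), and BGLU10, a glucosyltransferase gene of the list, passed downward in OE1 and OE2 (-0.83 and -0.84, limma adjusted p = 0.0231 and 0.0117). In the same fits 2346 of all 18128 genes were called lower in OE1 and 4548 in OE2. The DFR call in OE2 ended in a fit of OE2 and tt19-8 alone (adjusted p = 0.0541).

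**Figure D4:**
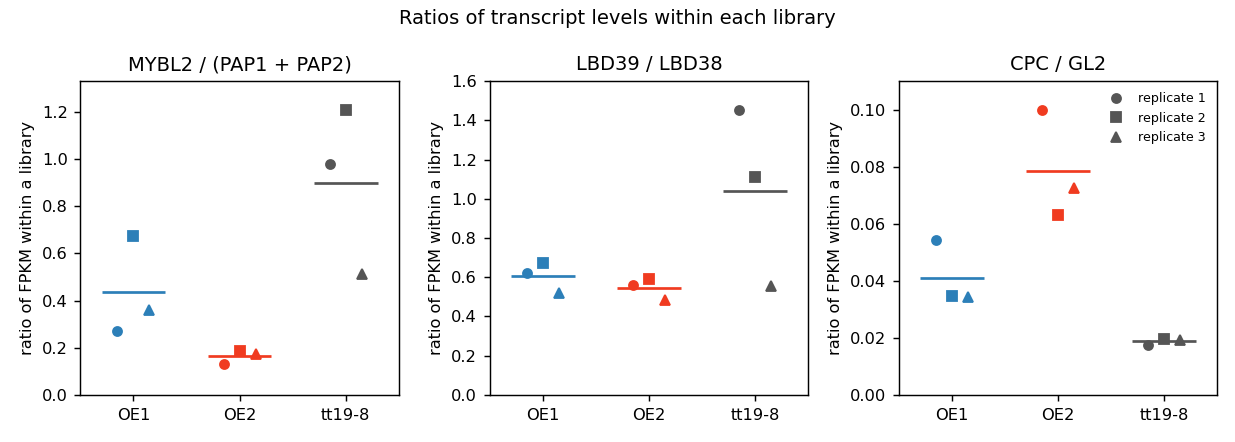
Ratios of FPKM within each library (linear axes from 0) for MYBL2 to PAP1 plus PAP2, LBD39 to LBD38 and CPC to GL2 in OE1, OE2 and tt19-8; symbols give the replicate number and the bar the group mean. The first ratio is lowest in OE2 (0.131 to 0.187), and the CPC to GL2 ratio is lowest in tt19-8 (0.0175 to 0.0197).

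SPL9 (AT2G42200, chromosome 2, 17587169 to 17589671, forward strand) did not differ between groups beyond its spread. It measured 4.11, 2.26 and 2.98 FPKM in OE1 and 4.06, 2.46 and 2.99 in OE2, against 3.99, 2.53 and 2.30 FPKM in tt19-8. The groups overlapped throughout, and the log2 changes were 0.06 ± 0.24 in OE1 and 0.09 ± 0.24 in OE2 (limma adjusted p = 0.897 and 0.816). An annotated miRNA gene, AT2G09340, overlaps SPL9 by 68 bases on the opposite strand. Whether the counting used strand is not given in the sources used here, so reads in that stretch cannot be told apart.

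Genes with the same miR156 site as SPL9 did not all keep their level. SPL11 fell to 2.97 ± 0.546 FPKM in OE2 (tt19-8 6.98 ± 1.35), a log2 change of -1.004 ± 0.19 (limma adjusted p = 0.0108). SPL10, its neighbour on chromosome 1, fell by 0.69 ± 0.15 (limma adjusted p = 0.0163). Both were lower in every library of the linked OE1 and OE2 than in any tt19-8 library, as were 13.3% of tested genes in OE1 and 27.7% in OE2. Their log2 changes in OE1 were -0.69 ± 0.19 and -0.54 ± 0.15 (limma adjusted p = 0.178 each). SPL11 and SPL10 were called lower in OE1 as well without tt19-8 replicate 3 (-0.83 and -0.63, limma adjusted p = 0.0242 and 0.0212), beside 2346 of all 18128 genes. Both calls in OE2 held after median-ratio scaling. SPL2 changed by -0.48 ± 0.21 in OE2, and SPL15, the closest relative of SPL9, by 0.04 ± 0.18 (limma adjusted p = 0.139 and 0.886). In all, 5 of 10 listed relatives were tested, and 2 fell in OE2, where 14.5% of all genes were lower. In OE1 0 of the 5 passed and 2 had an unadjusted p under 0.05, beside 3458 of all 18232 genes. SPL3 was listed at 0 in all 9 libraries, and SPL13A and SPL13B, near-identical copies that can share reads, were below the filter.

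The transcript of the MIR156A locus, the source of the miRNA printed above, measured 1.00, 1.44 and 0.890 FPKM in OE1 and 5.39, 2.39 and 3.17 in OE2, against 2.35, 6.24 and 2.33 FPKM in tt19-8. OE1 lay below the other groups, and its log2 change against tt19-8 was -1.04 ± 0.32 (limma adjusted p = 0.181). In OE2 it was 0.05 ± 0.32 (limma adjusted p = 0.92). MIR156B, MIR156E and MIR156F were listed at 0 in every library. These values are of precursor transcripts, and mature miR156 was not analysed here. The annotated MIR156A locus is 123 bases long, against 763 exon bases of CPC. A given FPKM of MIR156A thus stands for fewer fragments, and its separation between groups rests on few of them.

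MYB4 (AT4G38620, chromosome 4, 18053360 to 18055040, forward strand) did not differ beyond its spread. It measured 13.9, 10.12 and 15.6 FPKM in OE1 and 14.0, 10.2 and 15.6 in OE2, against 11.7, 16.6 and 15.1 FPKM in tt19-8. The groups overlapped, and the log2 changes were -0.13 ± 0.21 in OE1 and -0.12 ± 0.21 in OE2 (limma adjusted p = 0.749 and 0.707). The sign in OE2 turned after median-ratio scaling (0.06).

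C4H, the gene that MYB4 represses, measured 68.3, 56.4 and 90.1 FPKM in OE1 and 80.7, 71.0 and 102 in OE2, against 47.5, 53.2 and 54.0 FPKM in tt19-8. It rose in OE2 by 0.69 ± 0.20 (limma adjusted p = 0.0359), and in OE1 it changed by 0.44 ± 0.20 (limma adjusted p = 0.258). The MYB4 to C4H ratio was 0.173 to 0.204 in OE1, 0.144 to 0.174 in OE2 and 0.247 to 0.313 in tt19-8. Both lines lay below tt19-8 in this ratio, which was chosen after the values were seen. The phenylpropanoid ligase genes 4CL1 and 4CL3 fell in OE2 by 0.81 and 0.69 (limma adjusted p = 0.0136 and 0.0441), calls that ended after median-ratio scaling.

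The 3 relatives of MYB4 with the same repressor type measured at most 3.39 FPKM. MYB7 rose in OE2, with 3.39, 2.48 and 2.57 FPKM, against 0.645, 1.40 and 0.607 FPKM in tt19-8; the log2 change was 1.04 ± 0.21 (limma adjusted p = 0.0124). In OE1 MYB7 measured 1.02, 1.38 and 0.744 FPKM, within the tt19-8 range (0.13 ± 0.21, limma adjusted p = 0.743). The MYB7 difference between OE2 and OE1 was 0.90 ± 0.21 and did not pass (limma adjusted p = 0.075), though it did after median-ratio scaling (adjusted p = 0.0393). MYB32 and MYB3 changed by 0.58 ± 0.22 and 0.44 ± 0.22 in OE2 (limma adjusted p = 0.0894 and 0.181).

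Between OE2 and OE1 none of the 7 repressors passed the test, and 0 had an unadjusted p under 0.05, beside 2138 of all 18232 genes. The test called 1.43% of all genes (0.0329% lower), 2.18% after median-ratio scaling and 2.58% without tt19-8 replicate 3. LBD38 and LBD39 were lower in every OE2 library than in any OE1 library, and groups did not overlap in 21.8% of all genes (14.7% lower). Set library by library, OE2 over same-numbered OE1, the ratios of LBD39 were 0.751, 0.727 and 0.758. Those of LBD38 were 0.840, 0.827 and 0.817, and those of LBD37 were 0.876, 0.859 and 0.859. These values are unscaled. The FPKM of all genes summed to 896573, 867529 and 912535 in OE2 replicates 1, 2 and 3, against 1065380, 1032370 and 1079860 in OE1. The median-ratio factors were 0.956, 0.901 and 0.988 in OE2, against 1.00, 0.940 and 1.05 in OE1. The part of these library-wide differences in the LBD ratios was not tested. MYB4 gave 1.005, 1.01 and 1.003 and SPL9 gave 0.987, 1.09 and 1.00, so that these genes had nearly the same value in both files of a pair. CPC gave 1.30, 1.28 and 1.47, and MYBL2, the least even, gave 1.66, 1.07 and 0.912. With OE2 and OE1 alone and the replicate number as a block, limma called LBD37, LBD38 and LBD39 lower and CPC higher (adjusted p = 0.00105, 0.000963, 0.00104 and 0.0136). That fit, chosen after the link was seen, also called 66.5% of all genes (54.6% lower), and the share of the repressors lies near that background.

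**Figure D5:**
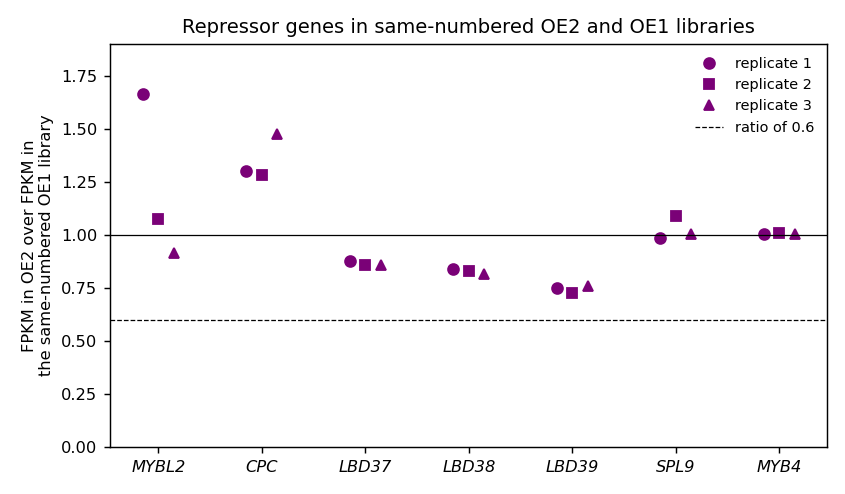
FPKM in each OE2 library divided by FPKM in the OE1 library of the same number (linear axis from 0), for the 7 repressor genes; the solid line marks equality and the dashed line a ratio of 0.6, below which no gene above 1 FPKM in OE1 fell. MYB4 sits at 1.003 to 1.01 in all 3 pairs and LBD39 at 0.727 to 0.758.

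The genes most like each repressor were found over the 9 libraries by the root mean square difference of log2(FPKM + 1), each gene centred on its own mean; the linked OE1 and OE2 values count as separate here. LBD39 was followed most closely by AT5G01160, at 0.0469, and by SCA3 (AT2G24120), an RNA polymerase gene of plastids, at 0.0631. SCA3 averaged 24.6 FPKM in OE1 and 17.5 in OE2, against 39.4 FPKM in tt19-8. MYB4 was followed by LPA2 and AT3G06440 (0.0405 and 0.0442), SPL9 by AT1G23030 and RAV2 (0.0666 and 0.0705), and LBD38 by AT5G27390 and AT2G04360 (0.0692 and 0.0843). LBD37 was followed by AT2G27980 and SRF8 (0.0772 and 0.0788), CPC by AT5G17210 and AT5G52370 (0.102 and 0.107), and MYBL2 by AT5G38910 and VTC2, an ascorbate synthesis gene (0.129 and 0.139). No fellow repressor was near: the closest pairs were LBD38 with MYB4, at 0.237, and LBD37 with LBD38, at 0.238. For LBD39 the nearest fellow repressor was LBD37, at 0.336, which ranked 3643 among all tested genes. For MYBL2 it was LBD37, at 0.356, and CPC and SPL9 were nearest to each other, at 0.270.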

How the data were processed

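RNA of 9 seedling samples was sequenced, and 1 file of FPKM per sample was deposited by the authors, with 33602 genes each. Per the submitters' processing notes, HISAT 0.1.6, edgeR and the build TAIR10 were used, without their roles. The gene lengths and totals behind the FPKM are not given in the sources used here. Symbols and positions came from the TAIR10.1 annotation (32835 identifiers matched).

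Because the deposited values are FPKM, limma 3.58.1 in R 4.3.3 was run on log2(FPKM + 1), with all 9 libraries in 1 fit, a term per group, and trend and robust on, for the 18232 genes that reached 1 FPKM in 3 or more libraries. Adjusted p is Benjamini-Hochberg over all genes, with a threshold of 0.05. A log2 change is given ± its standard error from limma, and a mean level ± SD. The fit was tested on simulated data drawn independently for each library, so that test does not cover the link of OE2 with OE1. Totals came from the low values of 9610 single-exon genes, of which 58.8% to 63.7% in OE1 and tt19-8 lay within 0.05 of a whole fragment, against 12.6% to 15.0% in OE2. The fragment limit covers counting error only. Alternatives were the pseudocount, the filter, median-ratio scaling, plain eBayes, only the groups compared, the replicate number as a block, and leaving out each library. Single genes outside the 7 repressors were followed under only some of these. They were scaling, only the groups compared, the block, and leaving out tt19-8 replicate 3. Whether their calls hold without any other library was not tested. Deviations from group means of same-numbered libraries correlated, over genes, at 0.953 to 0.959 for OE2 with OE1. For either line with tt19-8 they correlated at -0.0586 to 0.0425. The first range is the same link between the OE2 and OE1 values, and whether the samples themselves were paired was not tested. The genes named are the 7 repressors, TT19, up to 3 genes of each list by adjusted p, and the 2 most alike genes of each repressor, and other genes of the lists are named where a call or a count turns on them. The members and lists were chosen with earlier results of these data known. Other steps used Python 3.11.15 (numpy 2.4.6, pandas 2.3.3), and figures used matplotlib 3.10.9.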

Additional observations from a re-analysis of the deposited data

Results flagged for a closer look

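Beside the repressors, 2 listed genes changed differently in the lines, by the test of OE2 against OE1. PAP2, a target of the LBD repressors, was higher in OE2 than in OE1 by 1.76 ± 0.29 on the log2 scale (limma adjusted p = 0.0156), in 3 of 3 libraries. That call of PAP2 ended with the replicate number as a block (adjusted p = 0.056), and over the 3 other alternatives the adjusted p was 0.00903 to 0.038. LHCB1.1, a light-harvesting gene used as a green tissue marker, was higher by 1.20 ± 0.19 (limma adjusted p = 0.0132), also in 3 of 3. Of the 5 listed green tissue markers, 4 had log2 changes below 0 in OE2 against OE1, as had 13254 of all 18232 genes, with 0 of the markers called lower. RBCS1A was among these 4, at -0.51 ± 0.21 (limma adjusted p = 0.354), so the rise of LHCB1.1 was not shared by the other green tissue markers. The call of LHCB1.1 ended when OE2 and OE1 alone were fitted (adjusted p = 0.0564), and over the 3 other alternatives the adjusted p was 0.00585 to 0.0249. The libraries of OE2 and OE1 are linked, so neither is evidence from separate lines.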

How the results depend on the processing

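In OE1 against tt19-8, the count of repressors called was 0 under every alternative but one (0 to 1 with each library left out), and the count of genes, 3 as reported, was 0 with a pseudocount of 0.1 FPKM, with a filter of 5 FPKM and with only the 2 groups compared, 16 with the replicate block, and 0 to 3128 with each library left out, the highest without tt19-8 replicate 3. In OE2 against tt19-8, the count of repressors was 2 as reported and 1 with a filter of 5 FPKM, which removed CPC, and with only the 2 groups compared, and 1 to 2 with each library left out. The count of genes, 3467 as reported, was 530 to 5967 with each library left out. With the replicate block LBD37 also passed in OE2 (-0.48, limma adjusted p = 0.0494), where 26.7% of all genes were called (1232 higher and 3640 lower). The block changed no other call of a repressor against tt19-8. Same-numbered libraries of a line and of tt19-8 are not tied (correlations of -0.0586 to 0.0425), so the block matches no libraries in these comparisons. In OE2 against OE1, the count of genes, 260 as reported, was 146 with a pseudocount of 0.1 FPKM, 535 with no filter, 88 with a filter of 5 FPKM, 398 after median-ratio scaling and 49 to 467 with each library left out. With only those groups and the replicate block it was 12118, and the count of repressors was 4. Over the summed activators the mean MYBL2 ratio was 0.0261 in OE1, 0.0266 in OE2 and 0.0405 in tt19-8. The cause of these shifts was not tested. The split of calls in OE2 against tt19-8 was 821 higher and 2646 lower, and after median-ratio scaling 1240 higher and 1081 lower. In OE1 and tt19-8 all 7 repressors stood above the level of 3 fragments, and for OE2 the depth is unknown.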

Other observations

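Early flavonoid genes, which feed both flavonols and anthocyanins, did not pass with all 9 libraries in the fit: of 5 listed genes 4 were tested, with 0 called and 0 at an unadjusted p under 0.05 (limma). Over all 18232 genes 3458 had an unadjusted p under 0.05 in OE1 and 6446 in OE2. CHS, chalcone synthase, measured 1142, 1010 and 1183 FPKM in OE1 and 1070, 965 and 1112 FPKM in OE2, and 2652, 1738 and 867 FPKM in tt19-8. Replicate 3 of tt19-8 was the lowest of the 9 libraries in CHS and the other tt19-8 libraries were the highest. Without it CHS was called lower in OE1 and OE2, by log2 changes of -0.95 and -1.035 (limma adjusted p = 0.0176 and 0.00604), the only one of the 4 in each line. In the same fits 2346 of all 18128 genes were called lower in OE1 and 4548 in OE2. F3H was listed at or below 0.0786 FPKM in all 9 libraries, while the late gene DFR measured 279 to 584 FPKM in them. Whether the F3H values reflect the transcript or its quantification was not tested.

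The summed level of 5 seed storage and oil body genes was 2.71 to 70.8 FPKM in OE1 and 18.4 to 71.3 FPKM in OE2, against 97.0 to 603 FPKM in tt19-8. Replicate 2 of tt19-8 was the highest, and CRA1, a cruciferin gene, made up 388 FPKM of its sum. The part of this difference in the values of the repressors was not tested.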
